A study of Caenorhabditis elegans with 10 samples.

Results

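The genes described here are protein-coding genes with the strongest rise over wild type in 2 C. elegans mutants of nonsense-mediated mRNA decay (NMD). They were selected on measured values. A gene was taken when the lowest of the 4 *smg* libraries, 2 of *smg-1* and 2 of *smg-2* mutants, was at least 4 times the larger of 10 and the highest of the 2 wild-type (N2) libraries at 20°C. Gene classes such as the C-type lectins, cytochromes P450, F-box proteins, collagens and heat-shock proteins were left out by name. The rule found 106 of the 15106 genes in the table, of which 14722 were protein-coding. It passed 116 protein-coding genes before 10 were left out by name. All values against N2 in the *smg* mutants are therefore a description of the selection and carry no test. Of the 106 genes, 31 have a gene-class symbol and 75 only a sequence name.

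RNA was measured in 10 libraries of synchronized young adults of 4 strains. N2 served as the wild type. The smg alleles, rrr59 of *smg-1* and rrr60 of *smg-2*, came from a mutagenesis screen, each as 1 isolate, and by the strain table both strains also carry the R-1 reporter, a single-copy transgene on chromosome II that expresses GFP fused to histone H2B from the dpy-30 promoter, with unc-119(+). clk-2(qm37) is a temperature-sensitive allele, listed in that table in a strain with the R-2 reporter, which expresses mCherry and GFP fused to histone H2B, also from dpy-30 and also with unc-119(+). N2 carries none of these. No reporter strain without a mutation is among the libraries, so effects of reporter or strain background cannot be told apart from those of the mutations. Each strain gave 2 libraries at 20°C, and N2 and *clk-2* each gave 1 library after 3 hours at 25°C, which the labels call heat shock. The header of the *clk-2* columns merges 2 allele names of this gene, and these columns were assigned to it since the headers of the remaining columns name the other strains. Whether 20°C is permissive for *clk-2* is given differently in different places of the study, so the 20°C animals are described by their temperature only.

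NMD degrades mRNAs on which translation stops too early, for example at a premature stop codon, in front of an intron of the 3′UTR or after a short upstream reading frame. SMG-2 is the helicase at the core of the pathway and SMG-1 the kinase that phosphorylates it. In mammals, the relative of CLK-2 (TELO2) helps to assemble kinases of the SMG1 type. A gene can be an NMD target through all of its mRNA or through 1 splice form, and a gene-level value does not tell these apart.

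Values are normalized counts, that is, reads per gene divided by a size factor per library, and they were not divided by gene length. Totals ran from 3051836 to 14209955 reads. The shallow libraries were both from *clk-2*, replicate 1 at 20°C, in which 1 read was worth 2.59 normalized counts, and the library at 25°C, in which 1 read was worth 2.93. The *smg-1* gene in *smg-1* mutants differed from N2 by 1.503 on the log2 scale and the *smg-2* gene in *smg-2* mutants by 0.60, so the level of the mutated gene does not check these labels. Nothing says that replicates were separate cultures, so the p-values measure the spread between these libraries, which may be technical. The animals were lysed whole, so fewer cells of a type and less RNA per cell cannot be told apart.

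As a group, the 106 genes were low in N2, high in both *smg* mutants and slightly above N2 in *clk-2*. The median gene had 25.95 and 26.5 normalized counts in wild type, 37.5 and 35.4 in *clk-2* at 20°C, 208 and 221 in *smg-1* and 235.4 and 201 in *smg-2*. At 25°C it had 24.5 in N2 and 40.97 in *clk-2*. The median log2 difference from N2 was 2.90 for *smg-1* (range 2.07 to 7.499) and 2.98 for *smg-2* (range 2.17 to 7.27), values that follow from the rule. In N2 the 106 genes took 0.120% and 0.115% of all normalized counts, and in the *smg* mutants between 1.20% and 1.51%. Up to 0.681% of the total in a *smg-1* library came from *acdh-2* alone.

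**Figure D1:**
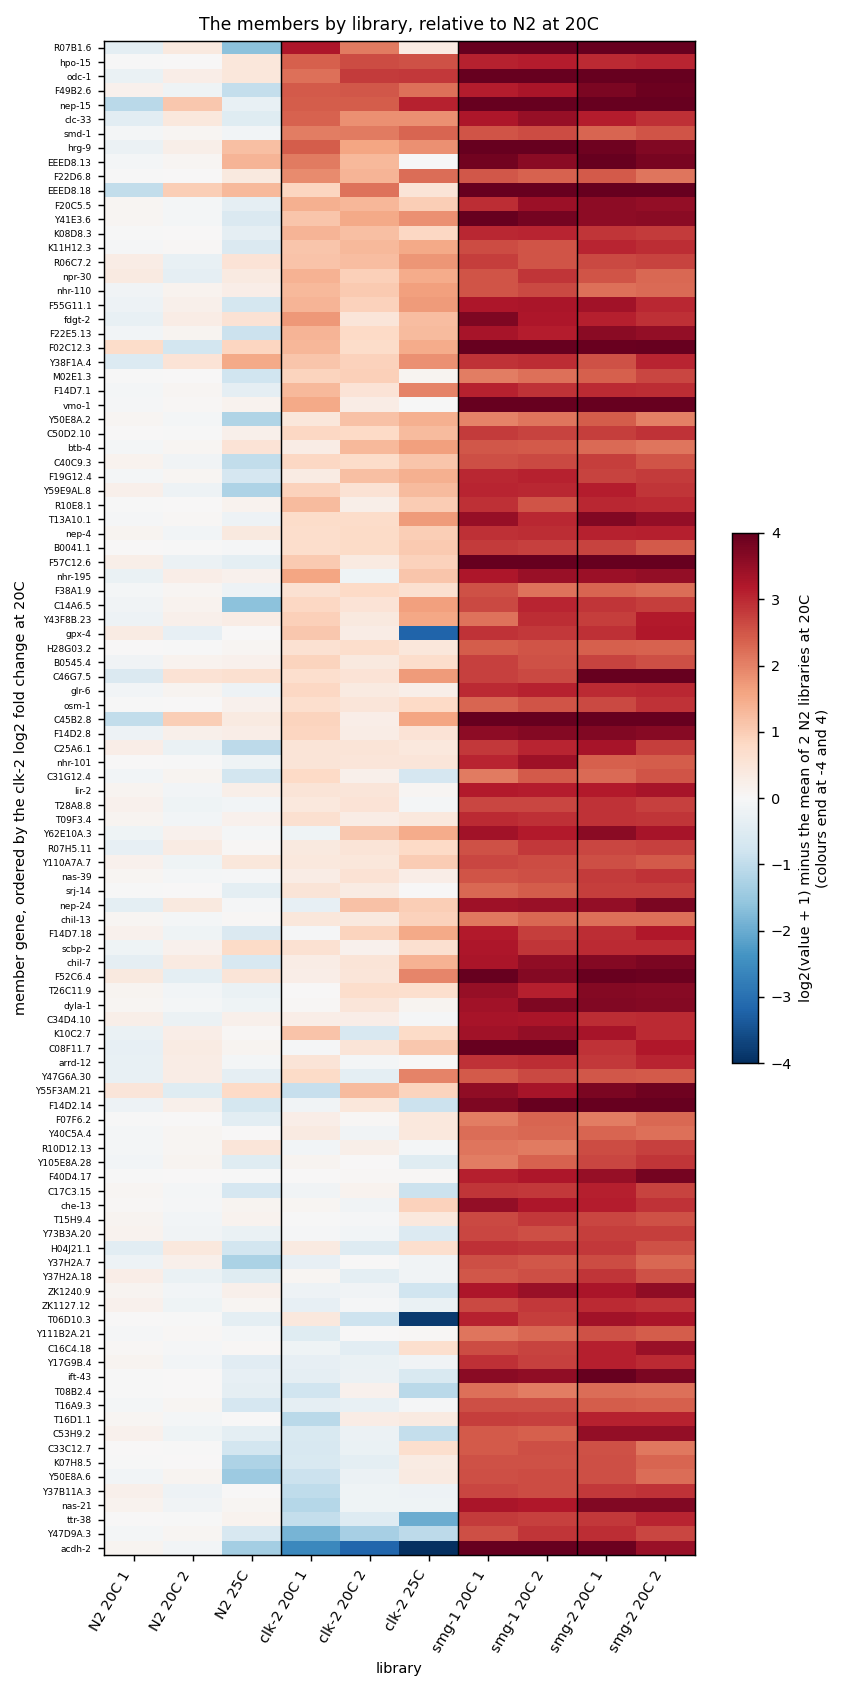
Each row is 1 of the 106 genes and each column 1 of the 10 libraries. Colour gives log2(value + 1) relative to the average N2 library at 20°C. All 4 smg columns are red in every row by the rule. The 3 *clk-2* columns run from mostly red in the top rows, led by *R07B1.6*, *hpo-15* and *odc-1*, to blue in the bottom row, *acdh-2*. In *R07B1.6* the *clk-2* column at 25°C, on 1 read, lies near N2.

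The gene farthest above the rule was *nep-15* (WBGene00018227, chromosome X, 8372206 to 8374529, plus strand), which encodes a protein of the neprilysin family of metallopeptidases. Wild type gave 3.51 and 18.7 normalized counts, *smg-1* 1753 and 1659 and *smg-2* 1621 and 1303. The lowest smg value was 69.6 times the reference, although the 2 N2 libraries themselves differed several-fold. *odc-1* followed with a ratio of 37.4 and *C45B2.8*, a gene with a coding length of 222 nucleotides, with 27.1. The ratio was 14.6 for *vmo-1*, 13.3 for *F57C12.6*, 12.4 for *F14D2.14*, 11.7 for *hrg-9*, 11.7 for *ift-43*, 10.5 for *F52C6.4* and 10.4 for *F14D2.8*. These 10 genes share no gene class. At the threshold, *Y50E8A.2* (4.002), *Y105E8A.28* (4.03) and *R10D12.13* (4.03) lay just inside. *ZC513.2*, at a ratio just under 4, *rig-6* (3.99) and *F46B6.4* (3.94) lay just outside, so the edge of the group is arbitrary. In *clk-2* at 20°C, *C45B2.8* had 23.3 and 14.8, beside 5.61 and 25.0 in wild type (limma adjusted p = 0.47), and it was called up only without N2 replicate 2 (log2 fold change 1.57). *F57C12.6* had 12.9 and 7.72 beside 7.01 and 4.68 (limma adjusted p = 0.14) and was called up only without *clk-2* replicate 2 (1.05). Both N2 libraries were under 10 normalized counts for 16 of the 106 genes.

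Per 1000 nucleotides of exon, the order of levels in the *smg* mutants was led by *acdh-2*, with a mean of 24200 normalized counts over the 4 libraries, followed by *C53H9.2* (10370), *odc-1* (7509) and *hpo-15* (3081). In N2, *acdh-2* (1285) and *C53H9.2* (1246) also came highest on this scale. *nep-15* was in place 83 of 106 in N2 and in place 8 in the *smg* mutants.

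In *clk-2* at 20°C, 19 of the 106 genes rose and 2 fell relative to N2, at a log2 fold change beyond 1 or -1 and a limma adjusted p under 0.05. The rise was called in 7.25% of all 13869 genes tested and in 17.9% of the 106, and the fall in 9.82% of all genes and in 1.89% of the 106. The median log2 fold change was 0.49, against 0.018 over all genes tested. Of the 106, 80 lay above 0, a count whose share over all genes was not computed. All 106 passed the filter of a mean of at least 10 normalized counts, but 91 would pass it on N2 and *clk-2* alone. This comparison uses the same 2 N2 libraries as the rule, so a low N2 value by chance would both favour the choice of a gene and raise its value in *clk-2*. N2 at 25°C, used next as the reference for *clk-2* at 20°C, is 1 library. In that setting strain and temperature differ together and cannot be told apart. Against N2 at 25°C, which the rule did not use, in place of N2 at 20°C, a setting added after seeing the data, 21 of the 106 were up, against 5.75% of all genes. Against both references 14 were up, with no share over all genes computed.

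At 25°C, with libraries that the rule did not use, 43 of the 106 genes were at least 2-fold higher in *clk-2* than in N2, and 5 were at least 2-fold lower. Over all genes tested, 12.7% were at least 2-fold higher and 6.19% at least 2-fold lower, while the shares among the 106 were 40.6% and 4.72%. The filter for genes tested used a mean that includes the *smg* libraries, so these shares are not fully independent of the rule. On N2 and *clk-2* at 20°C alone, 91 of the 106 would pass it, and the shares among these were not computed. The median log2 difference was 0.73, against -0.067 over all genes. Above 0 lay 84 of the 106 genes, again without a computed share over all genes. There is 1 library per strain at 25°C, so these values have no replicate check and no p. Of the 43 genes, 12 had fewer than 10 reads in the *clk-2* library, and in 38 the 95% counting interval of the ratio lay above 1.

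Of the 19 genes that rose at 20°C, 17 were also at least 2-fold higher at 25°C, and 71 of the 106 lay above 0 at both temperatures. For these counts the shares over all genes tested were not computed, so they do not set the 106 genes apart. In 46 of the 106 genes all 3 *clk-2* libraries lay above all 3 N2 libraries, which was so for 17.2% of all genes tested. In 5 all 3 lay below, against 19.5% of all genes. Across the 106 genes, the *clk-2* differences at 20°C and 25°C, which share no library, had a Pearson r of 0.55 and a Spearman rho of 0.54. It was 0.67 (Pearson) across all genes tested. Genes are not independent replicates, and these values are given as a description.

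**Figure D2:**
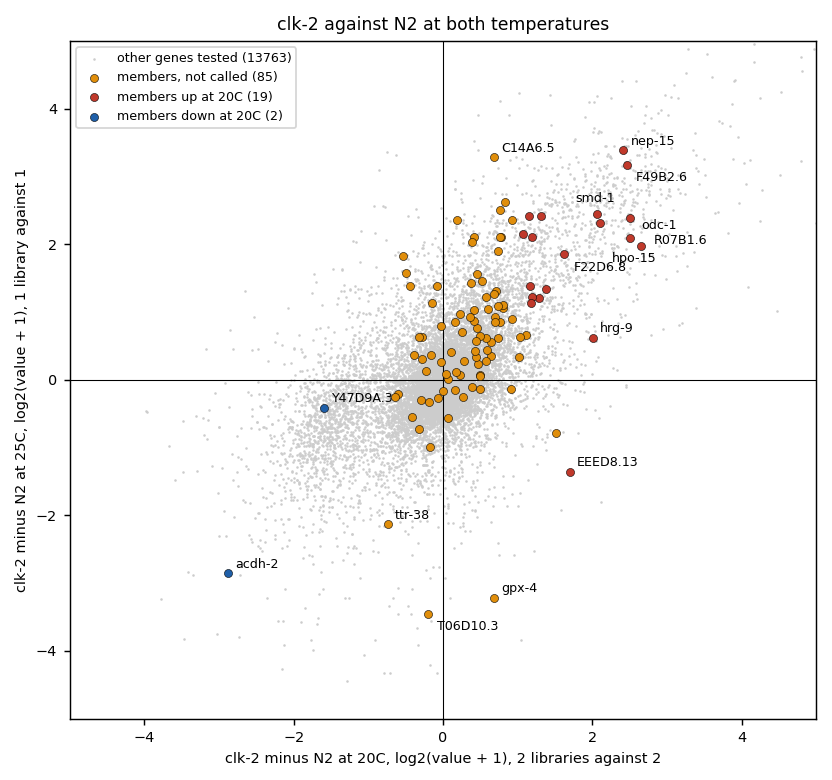
Each point is a gene, with its log2 difference between *clk-2* and N2 at 20°C on the horizontal axis (2 libraries against 2) and at 25°C on the vertical axis (1 against 1). The 19 genes called up at 20°C (red) lie mostly in the upper right, *acdh-2* lies in the lower left, and *EEED8.13*, up at 20°C, lies below 0 at 25°C on 2 reads.

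The smg values chose the genes, so the place of *clk-2* relative to them is a description that the rule favours. Both *clk-2* libraries at 20°C lay below all 4 *smg* libraries for 106 of 106 genes, and the *clk-2* library at 25°C did so for all but 1 of these. The mean of *clk-2* at 20°C was 17.6% of the mean of the 4 *smg* libraries for the median gene, with a range from 0.736% to 73.7%. It was at least 50% for 3 genes, *smd-1*, *hpo-15* and *F22D6.8*, and at least 25% for 23. It was under 10% for 18 genes. In the 19 genes that rose, the median was 31.7% and the range 3.12% to 73.7%.

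Polyamine synthesis was represented by both of its decarboxylases. *odc-1* (WBGene00003844, chromosome V, 6898540 to 6900223, minus strand) encodes ornithine decarboxylase, which makes putrescine. It had 199 and 284 normalized counts in wild type, 1105 and 1652 in *clk-2* at 20°C, 12184 and 12938 in *smg-1* and 10619 and 11719 in *smg-2*. The strains did not overlap, and both *clk-2* libraries lay between N2 and the *smg* mutants. The rise in *clk-2* (log2 fold change 2.503, standard error 0.20, limma adjusted p = 3.94e-05) brought it to 11.6% of the *smg* level. With the shift to 25°C, N2 gave 325 and *clk-2* 1694, a ratio of 5.22 (95% counting interval 4.58 to 5.95).

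*smd-1* (WBGene00004875, chromosome I, 14048094 to 14051010, minus strand) encodes S-adenosylmethionine decarboxylase, which provides the aminopropyl groups for spermidine. It had 895 and 1003 normalized counts in wild type, 3901 and 4017 in *clk-2* at 20°C, 5457 and 5811 in *smg-1* and 4786 and 5428 in *smg-2*. The *clk-2* libraries lay close below the *smg* libraries and far above N2. The rise (log2 fold change 2.06, standard error 0.11, limma adjusted p = 1.00e-05) reached 73.7% of the *smg* level, the highest share among the 106 genes. In the 25°C pair, N2 gave 877 and *clk-2* 4764, a ratio of 5.44 (95% counting interval 5.03 to 5.88). The *clk-2* value at 25°C was thus just under the lower *smg-2* library.

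The other genes of a short list for polyamine metabolism, made after seeing that *odc-1* and *smd-1* were in the group, were not called in *clk-2*. The list held 5 genes and does not cover the whole pathway. *spds-1*, spermidine synthase, had 386 and 379 normalized counts in wild type and 293 and 387 in *clk-2* at 20°C, a log2 fold change of -0.18 (limma adjusted p = 0.44). *argn-1*, an arginase, had a log2 fold change of -0.01 (limma adjusted p = 0.97). *catp-5*, a polyamine transporter, had 299 and 305 in wild type and 359.8 and 403 in *clk-2* at 20°C, a log2 fold change of 0.33 (limma adjusted p = 0.062), and 261 against 468 at 25°C, so that its 3 *clk-2* libraries lay above the 3 N2 libraries. The 2 called of 5 listed were the 2 that the rule had chosen.

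**Figure D3:**
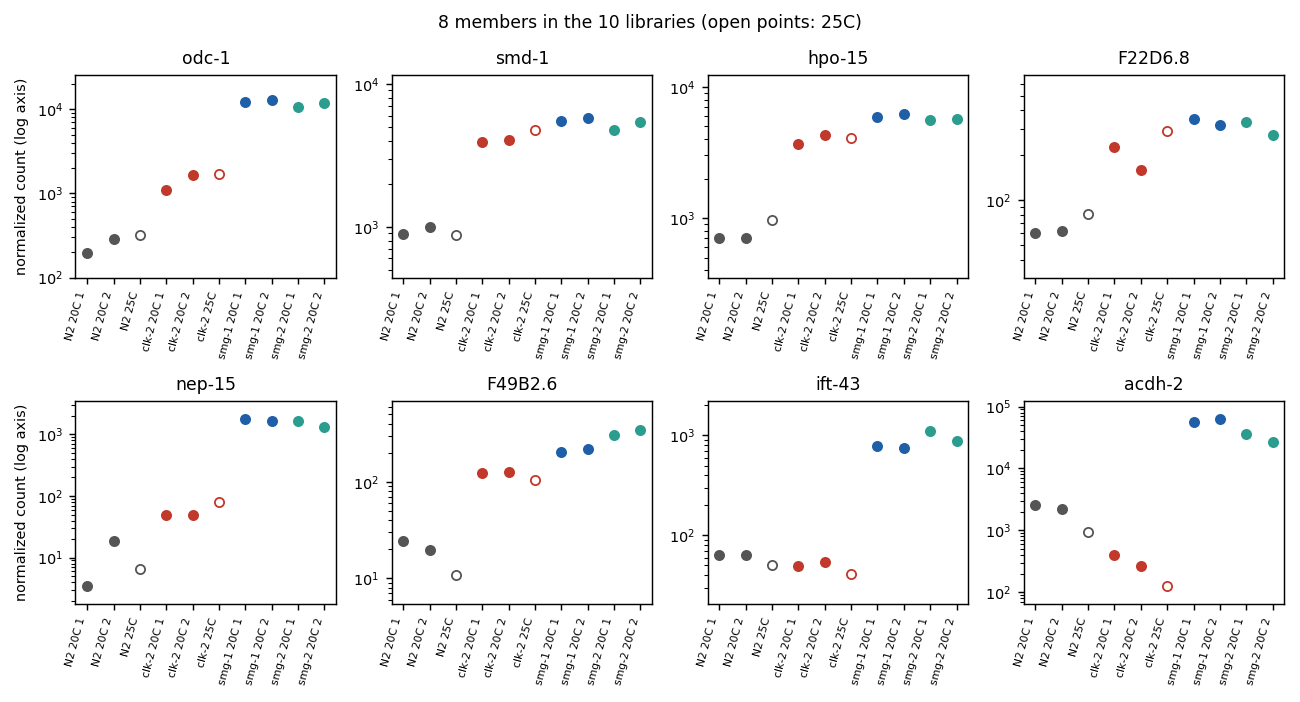
Normalized counts of 8 of the genes (log axis) in the 10 libraries, 1 point per library, with open points for 25°C. In *smd-1*, *hpo-15* and *F22D6.8* the 3 *clk-2* libraries lie near the *smg* libraries, in *odc-1* and *nep-15* they lie between N2 and smg, in *ift-43* they lie beside N2, and in *acdh-2* they lie below N2.

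The genes *hpo-15*, *F22D6.8* and *F49B2.6* also rose strongly. Their roles are not described here, and none of them was on the list of polyamine genes. *hpo-15* (WBGene00016061, chromosome V, 5509930 to 5513830, minus strand) gave 699 and 699.6 normalized counts in wild type, 3676 and 4309 in *clk-2* at 20°C, 5910 and 6212 in *smg-1* and 5569 and 5734 in *smg-2*. The change in *clk-2* was 2.51 on the log2 scale (standard error 0.10, limma adjusted p = 7.53e-06), which was 68.2% of the *smg* level. After 3 hours at 25°C, N2 gave 963 and *clk-2* 4083. The 3 *clk-2* libraries lay above all N2 and below all *smg* libraries. Its exons share 27 nucleotides with *nhr-47* on the opposite strand, which had a log2 fold change of 0.18 in *clk-2* at 20°C.

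*F22D6.8* (WBGene00043279, chromosome I, 7098977 to 7099866, minus strand) has a coding length of 303 nucleotides and an intron in its 5′UTR. It was not named by the rule for named genes and was picked after its values were seen. It had 60.3 and 61.7 normalized counts in wild type, 228 and 159 in *clk-2* at 20°C (log2 fold change 1.62, standard error 0.19, limma adjusted p = 2.88e-04), 347 and 317 in *smg-1* and 336 and 273 in *smg-2*. With the shift to 25°C, N2 gave 80.5 and *clk-2* 293. This was the single case among the 106 in which a *clk-2* library passed any *smg* library. *F49B2.6* (WBGene00009865, chromosome I, 14331085 to 14339839, plus strand) gave 24.6 and 19.5 normalized counts in wild type, 124 and 126 in *clk-2* at 20°C (log2 fold change 2.46, standard error 0.18, limma adjusted p = 2.58e-05), 202 and 218 in *smg-1* and 307 and 345 in *smg-2*. In the 25°C pair, N2 gave 10.8 and *clk-2* 105, a ratio of 9.76 (95% counting interval 5.06 to 20.1). All 3 *clk-2* libraries lay above all N2 and below all *smg* libraries.

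Among the 106 genes, *acdh-2* (WBGene00015894, chromosome II, 5544778 to 5547492, minus strand) fell furthest in *clk-2* at 20°C. It encodes an enzyme of the acyl-CoA dehydrogenase family, which acts in the breakdown of fatty or branched-chain acyl groups. It had 2581 and 2232 normalized counts in wild type, 401 and 266 in *clk-2* at 20°C, 56693 and 61900 in *smg-1* and 36112 and 26504 in *smg-2*. It was thus the most abundant of the 106 transcripts in the *smg* mutants and yet lay below N2 in both *clk-2* libraries. In *clk-2* the change was -2.87 on the log2 scale (standard error 0.20, limma adjusted p = 2.51e-05). After 3 hours at 25°C, N2 gave 937 and *clk-2* 129, a ratio of 0.137 (95% counting interval 0.0993 to 0.186), so the 3 *clk-2* libraries were below the 3 N2 libraries.

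The other gene that fell at 20°C was *Y47D9A.3* (WBGene00021630, chromosome I, 4275888 to 4276967, plus strand), with 47 and 53.1 normalized counts in wild type, 12.9 and 19.3 in *clk-2* (log2 fold change -1.60, standard error 0.23, limma adjusted p = 8.08e-04), 301 and 373 in *smg-1* and 390.3 and 322 in *smg-2*. With the shift to 25°C, N2 gave 31.5 and *clk-2* 23.4, a difference of 38 against 8 reads whose ratio had a 95% counting interval of 0.299 to 1.62. With N2 at 25°C as the reference its log2 fold change was -0.95 and it was no longer called. Without *clk-2* replicate 2 the number of genes down was 4 in place of 2. *acdh-2* and *Y47D9A.3* both have an annotated intron in the 3′UTR.

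*hrg-9* (WBGene00011305, chromosome V, 12961474 to 12963343, minus strand) is a heme-responsive gene that acts in heme trafficking. It had 9.82 and 14.1 normalized counts in wild type, 67.3 and 37.3 in *clk-2* at 20°C (log2 fold change 2.002, standard error 0.29, limma adjusted p = 8.89e-04), 205 and 224 in *smg-1* and 189.8 and 165 in *smg-2*. In the 25°C pair, N2 gave 28.2 and *clk-2* 43.9. The *clk-2* libraries at 20°C lay above all N2 libraries, but N2 itself was higher at 25°C than at 20°C, and with that library as the reference the log2 fold change was 0.81 and not called. Of the 7 hrg genes tested, of which 1 was in the group, 4 were called up in *clk-2* at 20°C, against 7.25% of all genes tested. Over the 7 genes the median log2 difference from N2 was 1.36 for *clk-2*, -0.29 for *smg-1* and -0.33 for *smg-2*. A rise in *clk-2* was thus not particular to *hrg-9* in this class. *gpx-4*, a glutathione peroxidase gene, had 10.5 and 6.25 in wild type, 18.1 and 10.29 in *clk-2* at 20°C, 67.1 and 64.2 in *smg-1* and 68.4 and 83.3 in *smg-2*, where N2 and *clk-2* overlapped. At 25°C it had 10 reads in N2 and 0 in *clk-2*. With 3 reads as the floor of that library, or 8.78 normalized counts, both values were at or under it and no fold is given.

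Intraflagellar transport, which builds and maintains cilia and in C. elegans runs in ciliated sensory neurons, had 3 genes in the group. *osm-1*, the relative of IFT172, had 152 and 158 normalized counts in wild type, 248 and 216 in *clk-2* at 20°C, 775 and 897 in *smg-1* and 967 and 1156 in *smg-2*. *che-13*, the relative of IFT57, had 25.3 and 23.4, 25.9 and 21.9, 291 and 239 and 220.0 and 186 in the same order. *ift-43* (WBGene00016121, chromosome II, 5659881 to 5660786, minus strand) gave 63.1 and 64.0, 49.2 and 54.01, 779 and 751 and 1111 and 887. In *clk-2* none of the 3 was called at 20°C, with log2 fold changes of 0.58 for *osm-1* (limma adjusted p = 0.013, under the fold of a call), -0.03 for *che-13* and -0.30 for *ift-43*.

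*ift-43* was high in the *smg* mutants and near N2 in *clk-2*. Both *clk-2* libraries lay below both N2 libraries, and the *clk-2* mean was 5.85% of the *smg* level. After 3 hours at 25°C, N2 gave 50.6 and *clk-2* 40.97. Of 22 tested genes of intraflagellar transport, listed after seeing that 3 were in the group, 5 were called up in both *smg* mutants, against 4.96% of all genes tested, but 3 of the 5 are there by the rule, the other two being *dyf-3* and *klp-20*. The median log2 difference from N2 over the 22 genes was 0.24 for *smg-1* and 0.16 for *smg-2*. In *clk-2* at 20°C 2 of the 22 were called up, against 7.25% of all genes tested, and both lay outside the 106.

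By gene-class symbol, 5 of the 106 genes belonged to the neprilysin (nep) and astacin (nas) classes of peptidases. Genes with only a sequence name were not sorted by family. Neprilysins cleave peptides outside the cell, and 3 of the 22 nep genes tested were in the group. *nep-15* had 49.2 and 49.5 normalized counts in *clk-2* at 20°C, above both N2 libraries (log2 fold change 2.42, standard error 0.51, limma adjusted p = 0.0066), and 79.0 in *clk-2* against 6.64 in N2 at 25°C. The 2 N2 libraries differ, and the log2 fold change was 1.35 without N2 replicate 1 and 3.48 without N2 replicate 2. At 25°C the difference was 3.39 on the scale of log2(value + 1), the largest of the 106 genes on that scale, while the plain ratio was larger for *C14A6.5*. At 20°C it reached 3.12% of the *smg* level. *nep-4* had 123 and 105 in wild type, 186 and 194 in *clk-2* at 20°C (log2 fold change 0.74, standard error 0.12, limma adjusted p = 0.002), 868 and 879 in *smg-1* and 973 and 994 in *smg-2*, which is under the fold of a call. *nep-24* had 4.91 and 9.37 in wild type and 5.18 and 16.7 in *clk-2*, which overlapped. Over all 22 nep genes the median log2 difference from N2 was 0.10 for *smg-1* and 0.15 for *smg-2*.

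Astacins are zinc metalloproteases, several of which act on the extracellular matrix and cuticle. *nas-39* had 63.1 and 57.8 normalized counts in wild type, 75.1 and 90.7 in *clk-2* at 20°C (limma adjusted p = 0.063), 349 and 365 in *smg-1* and 424 and 457 in *smg-2*. *nas-21* had 32.97 and 26.5, 12.9 and 26.4, 295 and 280.1 and 399.7 and 396 in the same order (limma adjusted p = 0.13). Neither was called in *clk-2*. *nas-39* lay slightly above N2 and *nas-21* at or below it, and without *clk-2* replicate 2 *nas-21* was called down (log2 fold change -1.13).

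Of the nuclear hormone receptors, a family of ligand-regulated transcription factors that is very large in nematodes, 3 of the 169 tested were in the group. *nhr-110* (WBGene00003700, chromosome V, 1622264 to 1624440, minus strand) gave 74.4 and 89.0 normalized counts in wild type, 199 and 169.7 in *clk-2* at 20°C (log2 fold change 1.17, standard error 0.15, limma adjusted p = 4.58e-04), 472 and 516 in *smg-1* and 380.3 and 397 in *smg-2*. With the shift to 25°C, N2 gave 97.9 and *clk-2* 258, and all 3 *clk-2* libraries lay above all 3 N2 libraries. With N2 at 25°C as the reference the log2 fold change was 0.90, under the fold of a call. *nhr-101* had 293 and 283 in wild type, 414 and 403 in *clk-2* at 20°C (log2 fold change 0.50, standard error 0.13, limma adjusted p = 0.015), 2397 and 3055 in *smg-1* and 1502 and 1542 in *smg-2*, and *nhr-195* had 18.9 and 27.3 in wild type and 69.9 and 19.9 in *clk-2*, which overlapped. Without *clk-2* replicate 2 the log2 fold change of *nhr-195* was 1.58 and called. Most of the exonic sequence of *nhr-101* (63.4%) overlaps *H12C20.7* on the opposite strand, so its reads cannot be assigned with certainty.

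Receptors at the cell surface included *npr-30*, of the neuropeptide receptor class, *glr-6*, a subunit of the ionotropic glutamate receptor family, and *srj-14*, of a class of chemoreceptors. *npr-30* had 18.2 and 10.9 normalized counts in wild type, 38.8 and 28.3 in *clk-2* at 20°C (log2 fold change 1.17, standard error 0.31, limma adjusted p = 0.019), 85.2 and 109.6 in *smg-1* and 86.5 and 73.8 in *smg-2*. This call was lost without N2 replicate 2 (log2 fold change 0.83), without *clk-2* replicate 1 (0.95), with N2 at 25°C as the reference (0.83), with a pseudocount of 10 (0.83), in a fit of N2 and *clk-2* alone (limma adjusted p = 0.10) and with DESeq2 (adjusted p = 0.057). *glr-6* had 105 and 122 in wild type, 202 and 144 in *clk-2* at 20°C (log2 fold change 0.59, standard error 0.17, limma adjusted p = 0.026), 894 and 964 in *smg-1* and 901 and 915 in *smg-2*, under the fold of a call. *srj-14* had 28.8 and 28.9, 41.4 and 36.7, 146 and 160.2 and 204 and 203 in the same order (limma adjusted p = 0.13).

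Among the remaining genes with a gene-class symbol, *clc-33* (WBGene00017871, chromosome II, 840431 to 841143, plus strand), of the claudin-like class, had 7.72 and 14.8 normalized counts in wild type, 59.5 and 41.2 in *clk-2* at 20°C (log2 fold change 2.10, standard error 0.32, limma adjusted p = 0.0011), 111 and 129 in *smg-1* and 103 and 88.7 in *smg-2*. In the 25°C pair, N2 gave 7.47 and *clk-2* 40.97, and all 3 *clk-2* libraries lay between N2 and smg. The chitinase-like genes *chil-13* and *chil-7* had log2 fold changes of 0.42 (limma adjusted p = 0.041) and 0.39 (limma adjusted p = 0.39) in *clk-2* at 20°C and were not called. *ttr-38*, of the transthyretin-related family, had 26.7 and 25.8 in wild type, 12.9 and 18.0 in *clk-2* at 20°C (log2 fold change -0.74, standard error 0.23, limma adjusted p = 0.035), 188 and 182 in *smg-1* and 193 and 222 in *smg-2*, and 29.1 against 5.85 at 25°C, the latter on 2 reads. It was below N2 in all 3 *clk-2* libraries but under the fold of a call at 20°C.

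*vmo-1*, a relative of an egg vitelline membrane protein of birds, had 2.81 and 3.12 normalized counts in wild type, 10.4 and 3.86 in *clk-2* at 20°C, 259 and 268 in *smg-1* and 236 and 146 in *smg-2*. *lir-2*, a zinc-finger gene related to lin-26, had 234 and 198, 308 and 299, 1950 and 1926 and 1942 and 2124 in the same order (log2 fold change 0.49, standard error 0.12, limma adjusted p = 0.012). After 3 hours at 25°C, N2 gave 252 and *clk-2* 228. For *btb-4* (a BTB-domain gene), *fdgt-2*, *scbp-2*, *dyla-1* and *arrd-12* (an arrestin-domain gene), the log2 fold change in *clk-2* at 20°C lay between 0.22 for *arrd-12* and 1.11 for *fdgt-2* and none was called by limma, the smallest adjusted p being 0.066 for *btb-4*. With the recovered reads *btb-4* was called by edgeR (log2 fold change 1.06, adjusted p = 0.0185) and DESeq2 (1.03, adjusted p = 0.0201). Some of these values changed their call without 1 library. Without *clk-2* replicate 2 the log2 fold change was 1.52 for *vmo-1* and 1.75 for *fdgt-2*, without N2 replicate 2 it was 1.41 for *fdgt-2*, and without *clk-2* replicate 1 it was 1.28 for *btb-4*, each then called up.

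The other genes that rose in *clk-2* at 20°C carry sequence names only, and apart from *R07B1.6* they were listed because they were called. *K08D8.3* had 198 and 205 normalized counts in wild type and 515 and 468 in *clk-2* at 20°C (log2 fold change 1.28, standard error 0.10, limma adjusted p = 4.26e-05). *K11H12.3* had 42.8 and 45.3 and 95.8 and 109 (log2 fold change 1.19, standard error 0.16, limma adjusted p = 4.67e-04), and *R06C7.2* had 96.1 and 63.2 and 173 and 185 (log2 fold change 1.19, standard error 0.19, limma adjusted p = 0.0016). In each of these the 3 *clk-2* libraries lay above the 3 N2 libraries. *F20C5.5*, *Y41E3.6*, *F55G11.1* and *F22E5.13* were between 6.25 and 12.5 normalized counts in N2 and between 14.8 and 31.1 in *clk-2*, with log2 fold changes from 1.08 to 1.38. The call was lost without N2 replicate 2 for *R06C7.2* (0.89), without N2 replicate 1 for *F22E5.13* (0.96) and *F55G11.1* (0.95) and without *clk-2* replicate 1 for *F22E5.13* (0.79) and *F55G11.1* (0.91).

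*R07B1.6* had the largest log2 fold change in *clk-2* at 20°C, 2.65 (standard error 0.44, limma adjusted p = 0.0018), from 1.40 and 3.12 normalized counts in wild type and 28.5 and 12.2 in *clk-2*. At 25°C it had 0 reads in N2 and 1 read in *clk-2*, which says nothing about a fold, although it is counted among the 17 above. Of its exonic sequence, 38.3% overlaps *R07B1.7* on the same strand, which had log2 differences of 4.03 (*smg-1*), 4.06 (*smg-2*) and 1.66 (*clk-2*). *EEED8.13* had 5.61 and 6.25 in wild type and 28.5 and 16.1 in *clk-2* at 20°C (log2 fold change 1.70, standard error 0.33, limma adjusted p = 0.0045), but 16.6 in N2 and 5.85, or 2 reads, in *clk-2* at 25°C. It shares 186 exonic nucleotides with *EEED8.18*, also of the group, so reads cannot be assigned to either with certainty. Of the 19 genes that rose, 12 overlap no other annotated gene.

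Several low genes were not called at 20°C and had some of the highest ratios at 25°C. *C14A6.5* had 11.2 and 14.1 normalized counts in wild type and 23.3 and 18.6 in *clk-2* at 20°C (limma adjusted p = 0.084), and 3.32 against 40.97 at 25°C, a ratio of 12.3 (95% counting interval 3.88 to 51.5). *Y50E8A.2*, which at 20°C was called by edgeR (log2 fold change 1.05, adjusted p = 0.0383) and without *clk-2* replicate 1 (1.18), had 5.81 against 40.97 at 25°C, a ratio of 7.05 (95% counting interval 2.66 to 20.6), and *Y59E9AL.8* had 3.32 against 23.4, a ratio of 7.05 (95% counting interval 1.89 to 32.0). Each of these rested on 4 to 14 reads per library, and in each the N2 library at 25°C was below both N2 libraries at 20°C. In all 3 genes the 3 *clk-2* libraries lay above the 3 N2 libraries, and with N2 at 25°C as the reference the *clk-2* libraries at 20°C were called up, with log2 fold changes from 1.98 to 2.34. In all, 26 of the 43 genes at least 2-fold higher at 25°C were not called at 20°C. At the other end, the libraries at 25°C held 12 reads of *T06D10.3* for N2 and 0 for *clk-2*, or 9.96 normalized counts in N2 beside a floor of 8.78 (3 reads) in *clk-2*. At 20°C it had 13.3 and 13.3 in wild type and 18.1 and 7.07 in *clk-2*, which overlapped. Of the 5 genes at least 2-fold lower at 25°C, *acdh-2* was the exception in having 10 or more reads in *clk-2*.

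In N2 at 25°C, 4 of the 106 genes (3.77%) were at least 2-fold above the N2 average at 20°C and 9 (8.49%) at least 2-fold below. The shares over all genes tested were 1.18% and 3.09%, and the median log2 difference of the 106 genes was -0.08. N2 at 25°C lay below the lowest *smg* library for 106 of 106 genes. The rule favours this count, since it placed the *smg* libraries at least 4 times above N2 at 20°C, and the share over all genes was not computed. In *clk-2* the median difference between 25°C and 20°C was 0.27, against 0.012 over all genes. With 1 library at 25°C per strain, whether the 2 strains respond differently to temperature was not tested.

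The rule set the same floor for both *smg* mutants, so the comparison of *smg-1* with *smg-2* uses the values that chose the genes and is a description. The means of the 2 mutants were within 2-fold of each other for 103 of the 106 genes, against 96.6% of all genes tested, and the median log2 difference of *smg-1* minus *smg-2* was -0.04. No gene was called higher in *smg-1* by limma (0.224% of all genes were), with 1 at an unadjusted p under 0.05 and 1 each by edgeR and DESeq2. That gene was *C08F11.7*, picked after its values were seen, with 359.9 and 312 normalized counts in *smg-1* against 124 and 156 in *smg-2*.

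The single call in the other direction, against 0.317% of all genes, was *C53H9.2* (WBGene00016907, chromosome I, 1832897 to 1834763, plus strand). Wild type gave 2401 and 1895 normalized counts, *smg-1* 11645 and 11218 and *smg-2* 24412 and 24238, a log2 difference of -1.09. The 2 mutants did not overlap, but without any 1 of the 4 *smg* libraries the count of such calls was 0. In *clk-2* at 20°C *C53H9.2* had 1403 and 1816 (limma adjusted p = 0.058). *C46G7.5*, with 134 and 126 in *smg-1* and 391.7 and 429 in *smg-2*, had a larger difference of -1.65 and was not called by limma, while edgeR and DESeq2 each called 2 genes in this direction. *acdh-2* went the other way, with a log2 difference of 0.94, and was not called.

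The annotated structure of the 106 genes differed from that of the 13554 protein-coding genes tested in features that the rule did not use. An intron within the 3′UTR was annotated in 16 of them (15.1%), against 4.83% of all, and an exon junction at least 50 nucleotides after the stop codon in 12 (11.3%), against 3.27%. An intron within the 5′UTR was annotated in 33 (31.1%), against 13.2%. The coding sequence was short, with a median of 669 nucleotides against 1125, and under 300 nucleotides in 21 genes (19.8%, against 4.23%). The median longest 5′UTR measured 71 nucleotides against 24, and the median longest 3′UTR 100.5 against 141. Genes without an annotated UTR were kept in these medians with no length. A 5′UTR was annotated in 77.4% of the 106 genes, against 89.8% of all, and a 3′UTR in 87.7%, against 96.4%. The medians therefore mix missing annotation with length, and the lower 3′UTR median does not by itself show shorter 3′UTRs. These are counts over annotated transcripts, which may themselves be incomplete, and no test was run on them. Among the genes that rose in *clk-2*, a 5′UTR intron was annotated in 7 of the 19 and a 3′UTR intron in 2 of the 19, against 26 and 12 of the 85 that were not called.

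**Figure D4:**
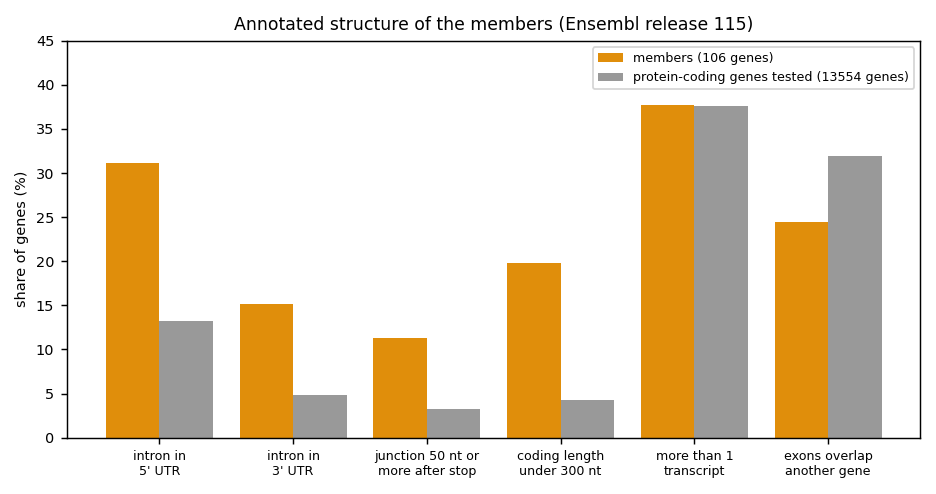
Bars give the share of genes, in percent, with each annotated feature among the 106 genes (orange) and the 13554 protein-coding genes tested (grey). Introns in the UTRs and coding lengths under 300 nucleotides were more frequent among the 106 genes, while the share with more than 1 transcript was 37.7% against 37.6%.

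Members with a stop codon far ahead of a 3′UTR junction included *nep-15*, *acdh-2*, *gpx-4* and *Y47D9A.3*, while the longest annotated 5′UTR of *odc-1* was 267 nucleotides and that of *smd-1* was 674. By chromosome, 26 of the 106 genes lay on II (24.5%, against 16.9% of all) and 5 on III (4.72%, against 15.8%). Exons of 26 genes (24.5%) overlap another annotated gene. Beside those named above, *F14D2.14* and *F14D2.8* share 359 nucleotides with each other, *C17C3.15* shares 49.7% of its exonic sequence with *C17C3.1*, and *F19G12.4* shares 90.8% with *F19G12.8*. The values of these genes are uncertain to that extent.

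Genes of the NMD machinery were not themselves in the group. Of 11 tested, 1 was called up in *clk-2* (*smg-5*, log2 fold change 1.01), 1 in *smg-1* mutants (*smg-1*) and 2 in *smg-2* mutants (*smg-1* and *smg-5*). Without *clk-2* replicate 1 none was called in *clk-2*. The *smg-1* gene was just under the fold of a call in *clk-2*, with 2222 and 2021 normalized counts in wild type, 4248 and 3783 in *clk-2* at 20°C (log2 fold change 0.92, limma adjusted p = 2.40e-04) and 2034 against 4881 at 25°C. Of 10 tested genes with splice forms known as NMD substrates in C. elegans, genes of SR splicing factors and ribosomal proteins, 0 were in the group. In *clk-2* 0 were called, while 0 were called up in *smg-1* and 3 in *smg-2*. Their median log2 difference from N2 was 0.47 for *smg-1* and 0.68 for *smg-2*. At an unadjusted p under 0.05, 57 of the 106 genes (53.8%) differed between *clk-2* and N2 at 20°C in either direction, against 39.0% of all genes tested.

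Other parts of the transcriptome also differed between *clk-2* and N2 at 20°C. Of 36 sperm genes tested 34 were called down, and their summed level was 27541 and 34052 in wild type but 8110 and 8265 in *clk-2*. Of 7 hypodermal genes 5 were called up (*dpy-7*, *rol-6*, *bli-1*, *dpy-13* and *sqt-3*), and N2 replicate 1 lay far below N2 replicate 2 in each of them, for example 163 against 1070 for *sqt-3*. The number up was 3 without N2 replicate 1, 5 without N2 replicate 2, 0 without *clk-2* replicate 1 and 3 without *clk-2* replicate 2, settings added for these lists after seeing the data. The summed level of the list was 48795 and 42635 in wild type and 35576 and 42553 in *clk-2*. Of the 10 intestinal genes 1 was called down, and 0 of the 11 oocyte, 8 neuronal and 6 body muscle genes were called in either direction. None of the listed genes was at 0 in all libraries, and none was among the 106. The part of these differences in the *clk-2* values of the 106 genes was not tested.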

How the data were processed

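According to the study's methods, rRNA was depleted, libraries were made with a ScriptSeq kit (the labels name another kit), and the submitters' processing notes name STAR 2.5.4a and DESeq2. Each deposited value is a signal made by the authors from the reads of a gene, divided by the size factor of its library. In each library 100% of the values were whole multiples of 1 step (relative tolerance 1e-06), so whole reads were recovered. All columns were assigned to a sample. No strand setting is given in the sources used here, so overlapping and antisense genes are uncertain.

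Gene types, coordinates and structures came from Ensembl release 115 (WBcel235), in which 14967 of 15106 gene IDs were found. log2(value + 1) was fitted with limma 3.58.1 (trend) in R 4.3.3 over the 8 libraries at 20°C, keeping genes whose mean reached 10 normalized counts, and p-values were adjusted over all 13869 genes after Benjamini and Hochberg. A fold change on this scale understates the change of low genes. The main design has no replicate block. At 25°C the difference of log2(value + 1) is given with no test. Ratios of 2 libraries carry exact 95% intervals that cover counting error only. As alternatives, the recovered reads were analysed with edgeR 4.0.16 and with DESeq2 1.42.0. Scripts were tested on simulated reads.

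The genes and lists were chosen with earlier results of these data known. Named genes are *nep-15*, the 10 with the largest ratio of the rule, the 8 with the largest rise in *clk-2* at 20°C among those with both *clk-2* libraries above both N2 libraries, the 3 lowest there, the 5 largest and 3 lowest at 25°C, up to 5 each way between *smg-1* and *smg-2* among those called, those at the threshold and all with a gene-class symbol. The lists of polyamine and intraflagellar transport genes, the roles and the other names were added after seeing the values. No sequence is shown, since no sequence was used here.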

Additional observations from a re-analysis of the deposited data

Results flagged for a closer look

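In 11 of the 106 genes both *clk-2* libraries at 20°C lay on 1 side of both N2 libraries while *clk-2* lay on the opposite side of N2 at 25°C. The share over all genes tested was not computed, so this count does not set the 106 genes apart. The difference between the temperatures was not tested, since there is 1 library per strain at 25°C. *Y50E8A.6* had 39.3 and 46.8 normalized counts in wild type and 23.3 and 36.7 in *clk-2* at 20°C (log2 fold change -0.54, limma adjusted p = 0.13), and 14.9 against 55.6 at 25°C (1.83 on the log2 scale, from 18 and 19 reads). *K07H8.5* had 82.8 and 83.5 normalized counts in wild type and 54.4 and 63.7 in *clk-2* at 20°C (log2 fold change -0.49, limma adjusted p = 0.042), and 34.9 against 105 at 25°C (1.57 on the log2 scale, from 42 and 36 reads). In both genes the N2 library at 25°C was also below the N2 libraries at 20°C. *C33C12.7* had 92.6 and 92.1 normalized counts in wild type and 59.5 and 76.5 in *clk-2* at 20°C (log2 fold change -0.45, limma adjusted p = 0.1), and 55.6 against 146 at 25°C (1.38 on the log2 scale, from 67 and 50 reads). Here too the N2 library at 25°C was below those at 20°C. *EEED8.13* had 5.61 and 6.25 normalized counts in wild type and 28.5 and 16.1 in *clk-2* at 20°C (log2 fold change 1.70, limma adjusted p = 0.0045), and 16.6 against 5.85 at 25°C (-1.36 on the log2 scale, from 20 and 2 reads). In the other genes the differences were smaller. Above N2 at 20°C and below it at 25°C were *lir-2* (0.49 and -0.14 on the log2 scale), *scbp-2* (0.39 and -0.11 on the log2 scale), *vmo-1* (0.91 and -0.14 on the log2 scale) and *C34D4.10* (0.26 and -0.26). At 25°C *vmo-1* had only 4 reads in N2 and 1 in *clk-2*. Below N2 at 20°C and above it at 25°C were *T16A9.3* (-0.32 and 0.63), *Y17G9B.4* (-0.29 and 0.30) and *C16C4.18* (-0.29 and 0.63). The N2 library at 25°C was also below both at 20°C for *T16A9.3* and *Y17G9B.4*, but not for *C16C4.18*.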

How the results depend on the processing

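The rise in *clk-2* at 20°C was called in 19 of the 106 genes, and in 13 to 25 under 13 other settings that kept all 106. Among genes whose mean reached 100 it was called in 11 of the 63 genes left, since fewer were tested. Leaving out 1 library gave 18 to 26 up and 2 to 4 down, and with N2 at 25°C as the reference (added after seeing the data) 1 was down. Higher in *smg-1* than in *smg-2* was 1 gene, in place of 0, with an unadjusted p, fold alone, DESeq2, edgeR, a pseudocount of 10, quantile normalization or a separate fit, and 0 to 1 without 1 library. Higher in *smg-2* were 2, in place of 1, under the same settings and with no filter, and 0 to 2 without 1 library. A pseudocount of 10 lowered the median log2 difference of *clk-2* to 0.39 at 20°C and 0.56 at 25°C, by its construction, and without 1 library the former was 0.47 to 0.54. Of the genes whose mean reached 100, 22 of 63 genes were at least 2-fold up at 25°C and the median was 0.62. The rule chose 194 genes at 3 times N2, 50 at 6 times and 109 to 151 without 1 library, the last without N2 replicate 2. Of 905 values of single named genes under the alternatives, 877 kept their side of the threshold, 19 passed it anew and 9 lost it, while 23, all uncalled and at most 0.70 in size, changed sign.

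With the replicate number as a block, 19 genes were up and 2 down, as without it. The numbers do not pair the samples, since deviations of same-numbered libraries correlated at -0.27 between N2 and *clk-2* and at -0.10 to 0.096 between the other groups. Crossing the numbers of *clk-2*, which was added after seeing the data, also gave 19 up and 2 down. Depth limits the low genes: 1 read was worth up to 2.93 normalized counts in the libraries of *clk-2*.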
